A study of Rattus norvegicus with 6 samples.

Results

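The proteasome genes of cultured rat muscle-derived stem cells were followed across 6 microarrays. A gene was taken as a member when a probe set carried a single annotated symbol of the Psma, Psmb, Psmc, Psmd, Psme, Psmf or Psmg families followed by a number. The rule found 48 genes on 49 probe sets, out of 18166 named genes. It used no measured value, but was chosen with earlier results of these data known. Of these, 43 encode parts, activators, inhibitors or assembly factors of the proteasome. The other 5 only share the prefix or are copies: Psma6-ps1, Psmd1-ps1, Psmb3l2, Psmc3ip, which encodes a meiotic recombination factor, and Psme3ip1, which encodes a partner of the activator Psme3. Members above the filter on low signal numbered 45, and the 3 below it were Psmb8, Psma6-ps1 and Psmb3l2.

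RNA came from stem cells of male rat skeletal muscle, obtained by a plating method, and was read on the Affymetrix Rat Gene 2.0 ST platform, where several short probes make up a probe set. The libraries were titled fatty acid, cholesterol, OZ serum, LZ serum, high glucose control and low glucose control, with 1 array each. The labels name sodium palmitate as the fatty acid, without a dose, and 100 mg/dl cholesterol with cyclodextrin as carrier. They give no age or strain, do not expand OZ and LZ, do not say whether a control held the carrier, and tie neither control to a treatment, so each lipid library was set against both. Without replicates the values have no error and nothing could be tested, so a difference is one between single arrays and need not hold for the condition.

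The median intensity of a library ran from 104.6 to 109.2 over 36685 probe sets, and the number of arrays limits the precision. No pair of libraries shared over 32 identical values. Of 6 muscle progenitor markers, Pax7 (log2 signal 6.90 to 7.26) and Des (6.83 to 7.05) lay just above the filter, a mean of log2 6.74. The means of Myf5, Myod1, Myog and Cdh15 lay below it, though Myog was at 6.91 with fatty acid. All 8 annotated mesenchymal markers lay above the filter. Of 9 macrophage and leukocyte markers 4 lay above it, and Ptprc, the pan-leukocyte marker, was at 5.42 to 5.59. No endothelial marker of 4 annotated passed. Between the high and the low glucose control, 22.3% of 11540 genes above the filter differed at least 1.2-fold.

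The proteasome breaks down proteins tagged with ubiquitin. Its 20S core is a barrel of alpha and beta rings, with the proteolytic sites on certain beta subunits. The 19S regulatory particle has a base, whose ring of ATPases unfolds the substrate, and a lid, which removes the ubiquitin chain. Interferons induce the catalytic subunits Psmb8, Psmb9 and Psmb10, which replace Psmb5, Psmb6 and Psmb7 in the immunoproteasome, and the activator subunits Psme1 and Psme2, which cap the core and favour peptides for antigen presentation. In muscle the proteasome is known for its part in protein loss during wasting, and in mammalian cells NRF1, encoded by Nfe2l1, raises most subunit genes together when proteasome activity falls.

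Promoter sequence is shown for the immunoproteasome genes Psmb10, Psme2, Psmb9 and Psme1, and for core genes whose promoters held an antioxidant response element core, since NRF1 and interferon factors act through such letters. RefSeq promoters of build GRCr8, 250 bases before to 50 after the start, were found for 40 members and searched on both strands. The interferon-stimulated response element was written as GAAA, 2 bases of any kind and GAAA, and the antioxidant response element core as TGACNNNGC. In these stretches, read on the gene's strand, capitals mark the interferon element in Psmb10 and Psme2 and TGACNNNGC in the last 3, while Psmb9 and Psme1 are shown as immunoproteasome promoters without a match.
Psmb10, chr19:50743293-50743392, minus strand: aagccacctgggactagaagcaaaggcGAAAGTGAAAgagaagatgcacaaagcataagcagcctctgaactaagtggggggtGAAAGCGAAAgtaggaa
Psme2, chr15:33052785-33052814, minus strand: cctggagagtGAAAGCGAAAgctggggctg
Psmb9, chr20:4668852-4668951, plus strand: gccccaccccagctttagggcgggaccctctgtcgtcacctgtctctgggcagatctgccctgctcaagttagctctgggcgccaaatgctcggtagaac
Psme1, chr15:33038862-33038961, plus strand: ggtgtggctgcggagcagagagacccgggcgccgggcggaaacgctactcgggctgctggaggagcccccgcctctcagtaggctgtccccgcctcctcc
Psmb5, chr15:32047380-32047479, minus strand: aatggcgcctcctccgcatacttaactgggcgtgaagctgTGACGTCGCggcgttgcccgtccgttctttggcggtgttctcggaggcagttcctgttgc
Psmb6, chr10:55737853-55737882, plus strand: actaaagagagTGACGGAGCgctttacgac
Psmb2, chr5:144254979-144255008, plus strand: acccgcgccaaTGACCGGGCggtcgcatat

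The interferon element was present in 7 of 40 member promoters (17.5%), against 3.92% of all 33469 promoters. They were 3 of 5 immunoproteasome promoters, namely Psmb10, Psme2 and Psmb8, whose stretch is not shown, and those of Psma4, Psmb3, Psmd7 and Psmg4. TGACNNNGC was likewise present in 7 of 40 member promoters (17.5%), against 12.1% of all promoters. They were those of Psmb2, Psmb5, Psmb6, Psmd1, Psmd3, Psmd9 and Psme4, with 0 of 5 alpha, 0 of 6 ATPase and 0 of 5 immunoproteasome promoters. The gamma-activated site, TTCNNNGAA, was in 4 of 40 member promoters (against 8.87% of all), and CCAAT in 19 of 40 (47.5%, against 37.5%). The CCAAT of Psmb2 ends in the first base of its TGACNNNGC match. A match describes the letters of this window and was not tested as a site.

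The fatty acid library was first set against both controls, to ask how palmitate-treated cells differed. Most lid genes of the 19S particle were higher than both controls, 5 of 8 by at least 1.2-fold. The immunoproteasome genes Psmb9 and Psme1 were lower by at least that much, and none of the 13 core genes was counted. A gene was counted when it lay at least 1.2-fold above or below both controls, and its difference is the smaller of the pair. By that rule 9 of 45 members were higher, against 12.9% of all genes above the filter, and 2 (4.44%) were lower, against 16.8%. At any size, 26 members lay above both controls and 9 below both, against 40.4% and 39.7% of all genes. No member reached 1.5-fold, against 9.05% of all genes. Of the 8 lid genes, 5 were counted as higher, which were Psmd6, Psmd8, Psmd11, Psmd12 and Psmd14. None of 22 other constitutive 20S and 19S genes was counted in either direction, though Psmc6 lay just under the threshold. Lid and base were set apart only after the values were seen. Over all 17 genes of the 19S particle, 5 were counted as higher and 0 as lower.

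**Figure D1:**
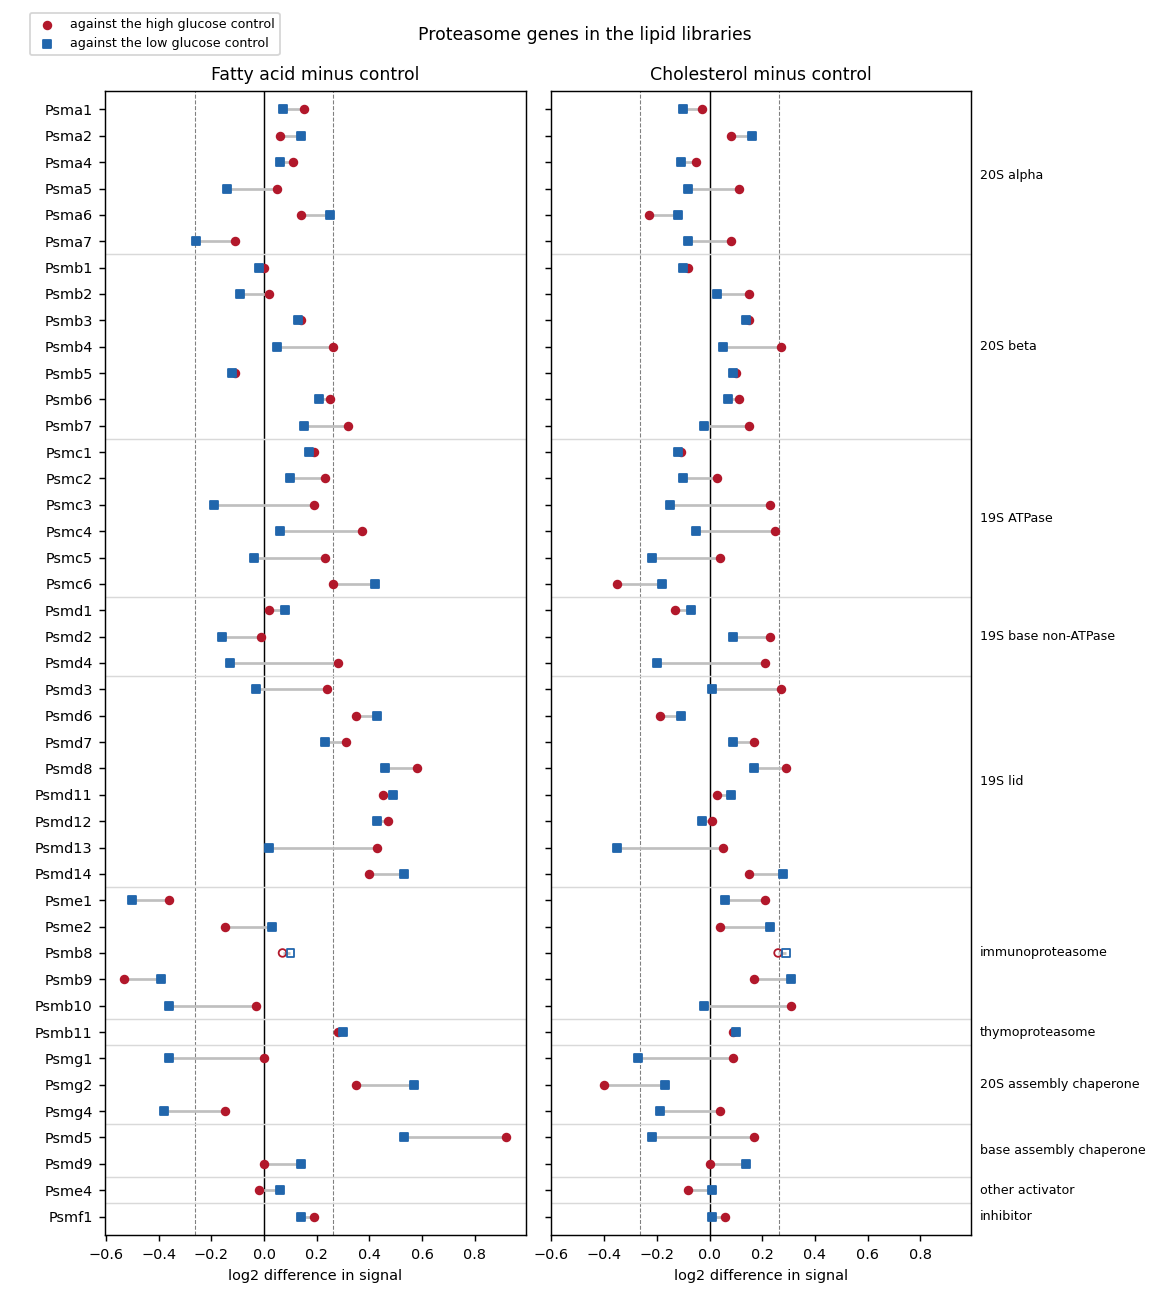
Log2 difference in signal of each proteasome gene (rows, grouped by role) between the fatty acid library (left panel) or the cholesterol library (right panel) and each control, with circles for the high glucose and squares for the low glucose control. Dashed lines mark 1.2-fold, open symbols the gene below the signal filter (Psmb8), and grey bars join the values from both controls. The lid genes Psmd6, Psmd8, Psmd11, Psmd12 and Psmd14 lie to the right of the dashed line against both controls in the left panel, and Psmb9 and Psme1 to the left of it.

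The lid members stood out library by library. Psmd14 (probe set 17772646), the zinc-dependent enzyme that cuts ubiquitin chains from substrates, had a log2 signal of 11.08 in the fatty acid, 10.83 in the cholesterol, 10.81 in the OZ serum and 10.57 in the LZ serum library, against 10.68 in the high and 10.55 in the low glucose control. Psmd11 (probe set 17649376), a lid scaffold subunit, was at 10.68 in the fatty acid, 10.27 in the cholesterol, 10.27 in the OZ serum and 10.21 in the LZ serum library, against 10.24 in the high and 10.19 in the low glucose control. Both genes had their highest signal in the fatty acid library, and the other libraries of Psmd11 spanned 10.19 to 10.27, a narrower range than its distance from them. Psmd12, another lid scaffold subunit, was at 11.15 in the fatty acid, 10.69 in the cholesterol, 10.77 in the OZ serum and 10.62 in the LZ serum library, against 10.68 in the high and 10.71 in the low glucose control. Psmd8 was at 9.74 in the fatty acid, 9.45 in the cholesterol and 9.29 in each serum library, against 9.16 in the high and 9.28 in the low glucose control. Psmd6 was at 11.05 in the fatty acid, 10.51 in the cholesterol, 10.84 in the OZ serum and 10.70 in the LZ serum library, against 10.70 in the high and 10.62 in the low glucose control. These scaffold subunits were highest with fatty acid, with the cholesterol library near the controls for Psmd12, above them for Psmd8 and below them for Psmd6.

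In fold terms, Psmd8 was 1.38-fold, Psmd11 1.36-fold, Psmd12 1.35-fold, Psmd14 1.32-fold and Psmd6 1.28-fold above the nearer control. The remaining lid genes were less clear. Psmd7, the partner of Psmd14, was 0.31 above the high and 0.23 above the low glucose control on the log2 scale. Psmd13, which helps to tie the lid to the base, was at 11.18 in the fatty acid, 10.81 in the cholesterol, 10.96 in the OZ serum and 10.98 in the LZ serum library, against 10.75 in the high and 11.16 in the low glucose control. Psmd3 was at 10.98 in that library, against 10.74 in the high and 11.01 in the low glucose control. For these last genes the controls themselves lay 0.41 and 0.27 apart, so the fatty acid library matched one control and exceeded the other. In all, 7 of 8 lid genes had their highest signal of the 6 libraries with fatty acid, where 3464 of 11540 genes did. The median difference of these 8 was 0.42 from the high and 0.43 from the low glucose control, against 0.01 and 0.00 over all genes above the filter. Sem1, a lid subunit whose symbol falls outside the member rule, is not among the 8. It was at 9.56 with fatty acid, against 9.33 in the high and 9.70 in the low glucose control. The split of the 19S genes into lid and base was made after the values were seen. With fatty acid 6 of 8 mesenchymal markers were at least 1.2-fold lower, against 16.8% of all genes, and 1, Cd44, was higher, against 12.9%. Their summed intensity was 40236 in the fatty acid and 48045 in the cholesterol library, against 54136 in the high and 56027 in the low glucose control. Of the muscle progenitor markers only 2 of 6 passed the filter. All 6 summed to 627 in the fatty acid and 564 in the cholesterol library, against 546 in the high and 563 in the low glucose control. The part of either in the lid values was not tested.

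**Figure D2:**
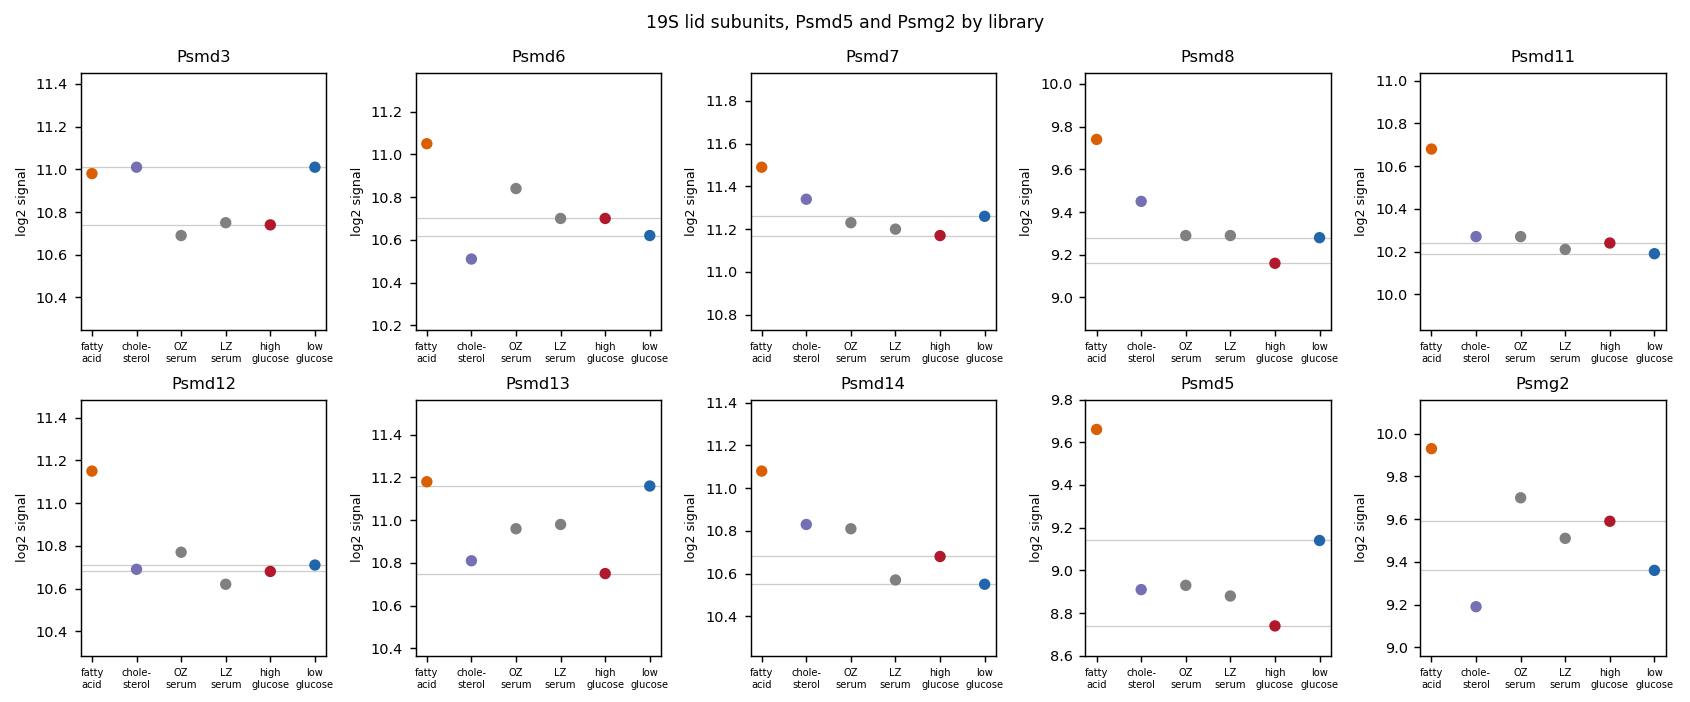
Log2 signal (y axis, each panel spanning 1.2 log2 units) of the 8 lid genes and of the assembly factors Psmd5 and Psmg2 in the 6 libraries (x axis), 1 point per array, with grey lines at both controls. The fatty acid point is the highest in every panel except Psmd3, and for Psmd13 it lies at 11.18 beside the low glucose control at 11.16.

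No gene of the 19S base was counted, though its ATPases had smaller median differences in the same direction. These were 0.23 from the high and 0.09 from the low glucose control. All 6 ATPases lay above the high glucose control (0.19 to 0.37), but against the low glucose control they ran from -0.19 to 0.42. Among the ATPases, 4 of 6 had their highest signal with fatty acid, where 3464 of 11540 genes did. Among the non-ATPase base genes 0 of 3 did. Psmc6, an ATPase of that ring, came nearest to being counted. It had a log2 signal of 11.58 in the fatty acid library, against 11.32 in the high and 11.16 in the low glucose control. Its smaller difference, 0.26, lay just under the 1.2-fold threshold of 0.263 on the log2 scale. Psmc3, another ATPase, was at 10.26 in the fatty acid, 10.30 in the cholesterol, 10.07 in the OZ serum and 10.19 in the LZ serum library, against 10.07 in the high and 10.45 in the low glucose control. Psmc1 was at 11.26 in the fatty acid, 10.96 in the cholesterol, 11.25 in the OZ serum and 11.13 in the LZ serum library, against 11.07 in the high and 11.09 in the low glucose control. Psmc1 was highest with fatty acid and lowest with cholesterol, and Psmc3 was highest in the low glucose control. Of the other ATPases, Psmc2 lay 0.10 and Psmc4 0.06 above the nearer control. Psmc5 lay between the controls, with differences of 0.23 from the high and -0.04 from the low glucose control. Of the non-ATPase base genes, Psmd1, a scaffold, was 0.02 above the nearer control and Psmd2, another scaffold, 0.01 below it (-0.01), while the ubiquitin receptor Psmd4 was at 9.36, between 9.08 in the high and 9.49 in the low glucose control. Over the 6 libraries Psmd1 ranged from 11.43 with cholesterol to 11.64 with OZ serum. Psmd2 was at 11.84 in the fatty acid, 12.08 in the cholesterol, 11.82 in the OZ serum and 11.83 in the LZ serum library, against 11.85 in the high and 11.99 in the low glucose control. Of the base factors outside the family, Adrm1, a ubiquitin receptor, was at 10.90 with fatty acid, against 10.78 in the high and 10.92 in the low glucose control.

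Core genes stayed close to the controls. Among 6 alpha genes, which form the gate of the barrel, smallest differences ran from -0.11 for Psma7 to 0.14 for Psma6. Among 7 beta genes they ran from -0.11 for Psmb5, which carries the chymotrypsin-like site, to 0.21 for Psmb6, which carries the caspase-like site. Psmb6 was at 11.64 in the fatty acid, 11.50 in the cholesterol, 11.38 in the OZ serum and 11.34 in the LZ serum library, against 11.39 in the high and 11.43 in the low glucose control. Psmb5 was at 11.65 in the fatty acid, 11.86 in the cholesterol, 11.86 in the OZ serum and 11.73 in the LZ serum library, against 11.76 in the high and 11.77 in the low glucose control. Psmb6 was highest with fatty acid and Psmb5 lowest. Psmb6 had a further probe set, 17647804, which was 0.23 above the high and 0.16 above the low glucose control, against 0.25 and 0.21 for the probe set used. Psmb7, with the trypsin-like site, was at 10.94 in the fatty acid library, against 10.62 in the high and 10.80 in the low glucose control. Psma6 was at 11.29 in the fatty acid, 10.92 in the cholesterol, 11.29 in the OZ serum and 11.12 in the LZ serum library, against 11.15 in the high and 11.04 in the low glucose control. Psma7 was at 9.51 in the fatty acid, 9.69 in the cholesterol, 9.58 in the OZ serum and 9.72 in the LZ serum library, against 9.62 in the high and 9.77 in the low glucose control. Psma6 was highest with fatty acid and OZ serum and Psma7 lowest with fatty acid. The other core genes, Psma1, Psma2, Psma4, Psma5, Psmb1, Psmb2, Psmb3 and Psmb4, had smallest differences between 0.00 and 0.13. The medians of the 13 core genes were 0.11 and 0.06 against the high and low glucose controls. Psmb5 and Psmb7 differed in opposite directions, each by less than 1.2-fold from the nearer control.

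Assembly factors differed among themselves. Psmd5 (probe set 17771568), a chaperone of the 19S base, had the largest difference of any member, 1.44-fold, at a log2 signal of 9.66 in the fatty acid, 8.91 in the cholesterol, 8.93 in the OZ serum and 8.88 in the LZ serum library, against 8.74 in the high and 9.14 in the low glucose control. Its fatty acid value lay above all others, though its controls were 0.40 apart. Psmg2, which pairs with Psmg1 to start the alpha ring, was 1.27-fold higher, at 9.93 with fatty acid, against 9.59 in the high and 9.36 in the low glucose control. Psmg1 itself was at 9.39 in the fatty acid, 9.48 in the cholesterol, 9.51 in the OZ serum and 9.53 in the LZ serum library, against 9.39 in the high and 9.76 in the low glucose control. The fatty acid library was at the top for Psmg2 and at the bottom, level with high glucose, for Psmg1. Psmg4, which acts with another small chaperone on the alpha ring, was at 8.54 in the fatty acid, 8.73 in the cholesterol, 8.55 in the OZ serum and 8.75 in the LZ serum library, against 8.69 in the high and 8.91 in the low glucose control. Its difference was -0.15 from the high and -0.38 from the low glucose control. Psmd9, a further base chaperone, was at 10.27 in the fatty acid, 10.27 in the cholesterol, 10.20 in the OZ serum and 10.06 in the LZ serum library, against 10.27 in the high and 10.13 in the low glucose control.

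Regulators differed by little. Psmf1, an inhibitor of the core, was at 11.35 in the fatty acid, 11.22 in the cholesterol, 11.10 in the OZ serum and 11.14 in the LZ serum library, against 11.17 in the high and 11.21 in the low glucose control. Psme4, which encodes the activator PA200, was at 10.97 in the fatty acid, 10.92 in the cholesterol, 11.04 in the OZ serum and 11.01 in the LZ serum library, against 11.00 in the high and 10.91 in the low glucose control. Psmf1 was highest with fatty acid, 0.14 above the nearer control, and Psme4 spanned 0.13 over all 6 libraries. Psmb11, the thymus-specific catalytic subunit, was at 7.14 in the fatty acid, 6.94 in the cholesterol, 7.10 in the OZ serum and 6.99 in the LZ serum library, against 6.85 in the high and 6.84 in the low glucose control, close to the filter. It was counted as higher at 0.28 on the log2 scale, but was under 1.2-fold with quantile normalization (0.26), median centring (0.24), cyclic loess (0.24) and an offset of 32 (0.23). Psme3ip1, no subunit, was at 9.65 in the fatty acid, 9.07 in the cholesterol, 9.30 in the OZ serum and 9.29 in the LZ serum library, against 9.29 in the high and 9.27 in the low glucose control. It was 1.29-fold higher with fatty acid.

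Of the 4 immunoproteasome genes above the filter, 2 were counted as lower with fatty acid, Psmb9 and Psme1, while Psmb10 and Psme2 were not. Psmb8 lay below the filter and was not counted. Psmb9 (probe set 17753152) had a log2 signal of 7.73 in the fatty acid, 8.42 in the cholesterol, 8.03 in the OZ serum and 7.95 in the LZ serum library, against 8.25 in the high and 8.12 in the low glucose control. Psme1 (probe set 17698850) was at 7.16 in the fatty acid, 7.72 in the cholesterol, 7.41 in the OZ serum and 7.50 in the LZ serum library, against 7.51 in the high and 7.66 in the low glucose control. For both genes the fatty acid library was the lowest of 6 and the cholesterol library the highest. Psmb9 was 1.31-fold and Psme1 1.28-fold below the nearer control. Psmb10 was at 8.0 in the fatty acid, 8.34 in the cholesterol, 7.94 in the OZ serum and 8.09 in the LZ serum library, against 8.03 in the high and 8.36 in the low glucose control. Psme2 was at 11.13 in the fatty acid, 11.32 in the cholesterol, 11.32 in the OZ serum and 11.11 in the LZ serum library, against 11.28 in the high and 11.10 in the low glucose control. Neither was counted, and for each the fatty acid library lay within 0.03 of one control.

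Psmb8, below the filter, was at 6.06 in the fatty acid, 6.25 in the cholesterol, 5.95 in the OZ serum and 5.90 in the LZ serum library, against 5.99 in the high and 5.96 in the low glucose control. The median of the 4 genes above the filter was -0.25 against the high and -0.37 against the low glucose control. Psmb9, Psmb10 and Psme1 ran at lower signals than Psme2, between 7.16 and 8.42 over the 6 libraries. Psme1 was the nearest of them to the filter, at 7.16 to 7.72. Leukocyte marker intensity was summed over 9 genes, of which 4 passed the filter. The sum was 1125 in the fatty acid and 2025 in the cholesterol library, against 1452 in the high and 1192 in the low glucose control. Cd14 had the highest signal of the 9 in each library. It was at log2 8.41 with fatty acid and 10.13 with cholesterol, against 9.62 in the high and 9.01 in the low glucose control. Of the 4 above the filter, Cd68 (0.40) and Cd74 (0.36) were counted as higher and Cd14 (-0.60) as lower with fatty acid. Over all genes 12.9% were higher and 16.8% lower. The part of these markers in the immunoproteasome values was not tested, and Ptprc stayed under the filter in all 6 libraries. In RNA from whole cultures, fewer cells of a type and less RNA per cell cannot be told apart.

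**Figure D3:**
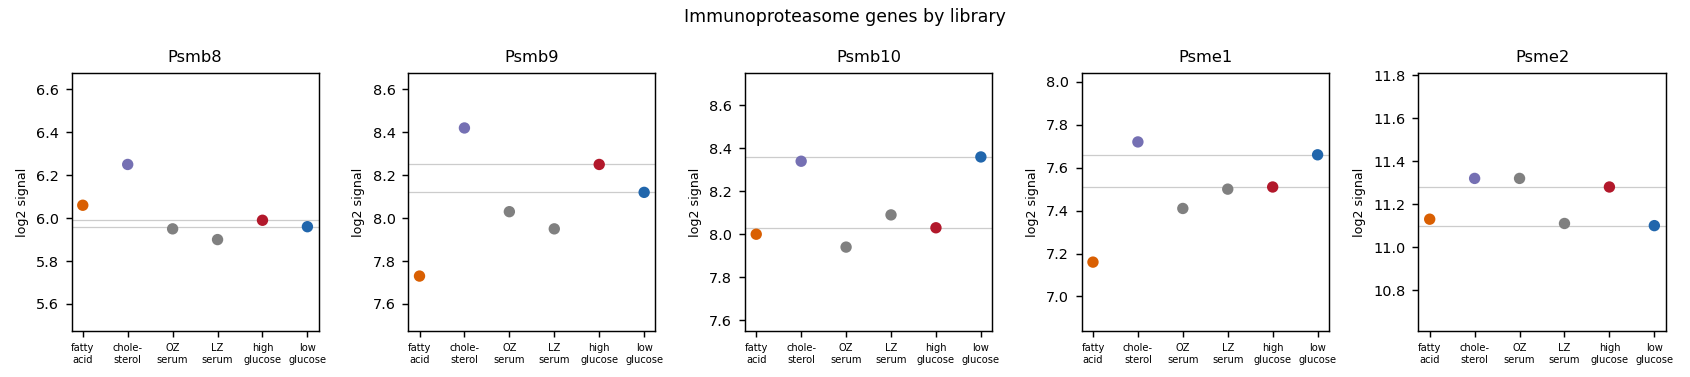
Log2 signal (y axis, each panel spanning 1.2 log2 units) of the 5 immunoproteasome genes in the 6 libraries (x axis), 1 point per array, with grey lines at both controls. The fatty acid library is lowest for Psmb9 (7.73) and Psme1 (7.16), and the cholesterol library is highest for Psmb8 (6.25), Psmb9 (8.42) and Psme1 (7.72).

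Genes around the immunoproteasome did not follow it as a block. In the RefSeq gene order Psmb8 and Psmb9 lie among Tap2 and Tap1, which encode the peptide transporter of antigen presentation. Tap1, next to Psmb9, was at 7.95 in the fatty acid library, against 8.17 in the high and 8.19 in the low glucose control. Tap2 was at 8.05 in the fatty acid library, against 7.92 in the high and 7.94 in the low glucose control. Of 10 antigen presentation and interferon genes above the filter, 1 was counted as lower, Erap1, an aminopeptidase that trims peptides (-0.40), and 0 were counted as higher, where 16.8% and 12.9% of all genes were. Irf1, an interferon-induced transcription factor, was 0.10 above the nearer control.

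Companion genes of the degradation pathway were read from lists. Of 14 proteasome-associated genes above the filter, 4 were at least 1.2-fold higher and 1 lower, where 12.9% and 16.8% of all genes were. The largest difference was in Zfand2a, an arsenite-inducible partner of the proteasome (1.61 on the log2 scale), at 11.93 in the fatty acid and 10.83 in the cholesterol library, against 10.32 in the high and 10.23 in the low glucose control. Akirin2, which brings proteasomes into the nucleus, was 0.63 higher, Uchl5, a deubiquitinase of the base, 0.44 and Txnl1, a thioredoxin-like partner, 0.35. Ubqln2, a shuttle for ubiquitinated proteins, was lower (-0.38). Pomp, the maturation factor of the core, and the lid subunit Sem1 were not counted.

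Of 12 genes of the NRF1 pathway, 5 were counted as higher and 1 as lower, beside the same 12.9% and 16.8% of all genes. Nfe2l1 itself was at 11.11 in the fatty acid library, against 11.17 in the high and 11.14 in the low glucose control. Ngly1, the deglycosylating enzyme that NRF1 needs for activity, was lower (-0.49), while the related factor Nfe2l2 (0.37), the small Maf proteins Maff (0.35) and Mafg (0.30), Bach1 (0.34) and Nploc4 (0.32), a cofactor of the segregase Vcp, were higher. Of 8 antioxidant targets of NRF2, encoded by Nfe2l2, 7 were counted as higher and 0 as lower, beside 12.9% and 16.8% of all genes, and the median over all 8 was 0.90. They were Hmox1 (1.22), a heme oxygenase, Srxn1 (1.2), a sulfiredoxin, Txnrd1 (0.96), a thioredoxin reductase, Osgin1 (0.92), the glutathione synthesis genes Gclc (0.87) and Gclm (0.78), and Nqo1 (0.58), a quinone reductase. Slc7a11, the cystine transporter, was not counted. These values stand beside the lid genes as further measurements of the same libraries, and their part in them was not tested. Of the ubiquitin-activating enzymes, Uba1 was at 11.44, against 11.46 in the high and 11.71 in the low glucose control, and Uba6 lay 0.04 above the nearer control.

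Cholesterol was set against the same controls, to ask whether the sterol shifted these genes. Few members differed. Of 45 members 0 were at least 1.2-fold higher than both controls, against 7.01% of all genes, and 1 (2.22%) was lower, against 7.18%. The lower gene was Psmc3ip (-0.31), which is no subunit. Psmc3ip was at 7.64 in the fatty acid, 7.41 in the cholesterol, 7.46 in the OZ serum and 7.40 in the LZ serum library, against 7.82 in the high and 7.73 in the low glucose control. Both controls were above the other 4 libraries for it. At any size, 18 members were above both controls and 12 below both, against 36.3% and 33.6% of all genes. The largest positive values were Psmd8 and Psmb9, each at 0.17, and Psmd14 at 0.15. Psmb3, a structural beta subunit, was at 7.83 in the fatty acid, 7.84 in the cholesterol, 7.69 in the OZ serum and 7.85 in the LZ serum library, against 7.69 in the high and 7.70 in the low glucose control. It was 0.14 above the nearer control, with LZ serum as high as the lipid libraries. The largest negative values among subunits and assembly factors were Psmc6 at -0.18, Psmg2 at -0.17, Psma6 at -0.12 and Psmd6 at -0.11.

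The constitutive 20S and 19S genes had a median difference of 0.09 from the high and -0.06 from the low glucose control. The immunoproteasome genes had medians of 0.19 and 0.14, with Psmb9, Psme1 and Psme2 above both controls and Psmb10 above the high glucose control alone. Psmb8 was 0.26 and 0.29 above the controls, at signals under the filter. Of the antigen presentation list, Tapbp, the tapasin that loads peptides (0.55), and Irf1 (0.52) were counted as higher and none as lower, 2 and 0 of 10, where 7.01% and 7.18% of all genes were. Cd68 (1.56) and Cd14 (0.51), from the leukocyte list, were also higher in the cholesterol library, and their part in these values was not tested. The proteasome-associated list held 1 counted gene of 14, Zfand2a (0.51), and the NRF1 pathway list 1 of 12, Ddi2 (0.35), the protease that activates NRF1. Of the 8 NRF2 targets, 4 were counted as higher, Hmox1 (0.67), Nqo1 (0.67), Osgin1 (0.48) and Srxn1 (0.35), and 1 as lower, Slc7a11 (-0.79). Beside each of these lists, 7.01% of all genes were counted as higher and 7.18% as lower.

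Both lipid libraries were read against the same controls, so they were also compared with each other. With fatty acid, 11 of 45 members (24.4%) were at least 1.2-fold higher than with cholesterol, against 18.8% of all genes. Another 3 (6.67%) were lower, against 23.8%. All 3 lower genes belong to the immunoproteasome: Psmb9 at 1.62-fold, Psme1 at 1.48-fold and Psmb10 at 1.26-fold, and the fourth measured gene of that group, Psme2, was also lower at 1.14-fold. The higher genes were led by Psmd5 and Psmg2, each at 1.68-fold, Psmc6 at 1.52-fold and Psmd6 at 1.45-fold. At 1.5-fold 4 members lay apart, against 11.7% of all genes. Lid genes supplied 5 of the 11, which were Psmd6, Psmd8, Psmd11, Psmd12 and Psmd13. Psmd14, counted against both controls, was 0.25 higher here. Of the 10 antigen presentation and interferon genes, 4 were at least 1.2-fold lower with fatty acid than with cholesterol, Tapbp (-0.61), Irf1 (-0.42), Tap1 (-0.39) and Erap1 (-0.36). The chaperones of the endoplasmic reticulum Calr (0.34) and Pdia3 (0.31) were higher. Over all genes 23.8% were lower and 18.8% higher. The leukocyte markers Cd14 (-1.72) and Cd68 (-1.16) were lower and Cd74 (0.62) higher in the same comparison, and their part in it was not tested.

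**Figure D4:**
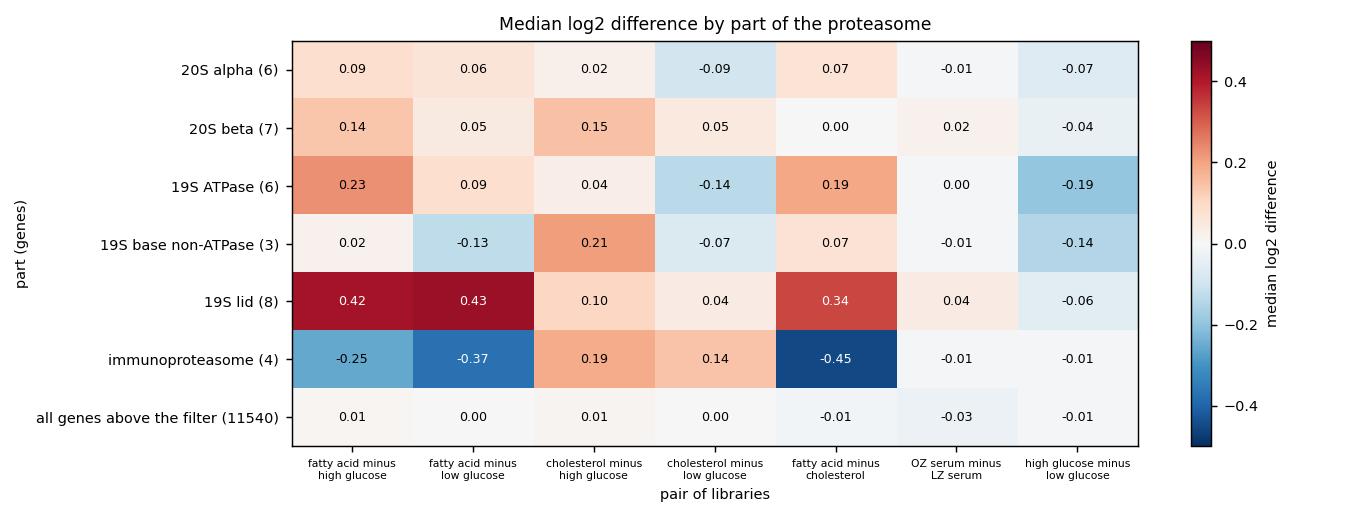
Median log2 difference (colour and printed value) over the genes of each part of the proteasome (rows, gene number in brackets) for 7 pairs of libraries (columns). The lid has medians of 0.42 and 0.43 and the immunoproteasome -0.25 and -0.37 for fatty acid against the high and low glucose controls, and all genes above the filter lie between -0.03 and 0.01.

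Some members lay above both controls with fatty acid and below both with cholesterol. Psmc6 had a log2 signal of 11.58 in the fatty acid, 10.98 in the cholesterol, 11.39 in the OZ serum and 11.31 in the LZ serum library, against 11.32 in the high and 11.16 in the low glucose control. Psmg2 was at 9.93 in the fatty acid, 9.19 in the cholesterol, 9.70 in the OZ serum and 9.51 in the LZ serum library, against 9.59 in the high and 9.36 in the low glucose control. For each the lipid libraries held the extremes of the 6, with the controls and serum libraries between. Psma6, of the alpha ring, and Psmd6 had the same arrangement except that Psma6 reached 11.29 with OZ serum as well as with fatty acid. Medians of the constitutive genes by part were 0.34 for the lid, 0.19 for the ATPases, 0.07 for the alpha and 0.00 for the beta genes, with -0.01 over all genes.

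Between OZ and LZ serum, 0 of 45 members were counted in either direction, against 3.36% of all genes higher and 5.25% lower. The largest values were 0.24 for Psmd14, 0.21 for Psme2 and 0.19 for Psmg2 on the high side, and -0.20 for Psmg4 and -0.16 for Psmb3 on the low side. The constitutive genes had a median of 0.02. When both serum libraries were set against both controls, 0 members were higher and 1 was lower, Psmc3ip (-0.27), against 0.13% and 0.329% of all genes.

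Every member counted between the controls was lower with high glucose. In the high glucose control 9 of 45 members were at least 1.2-fold lower than in the low glucose control, against 10.8% of all genes, and 0 were higher, against 11.4%. The counted genes were the base genes Psmc3 (-0.38), Psmc4 (-0.31), Psmc5 (-0.26) and Psmd4 (-0.41), the lid genes Psmd3 (-0.27) and Psmd13 (-0.41), the chaperones Psmd5 (-0.40) and Psmg1 (-0.37), and Psmb10 (-0.33). Psmc5 and Psmd3 fell under 1.2-fold with quantile normalization, cyclic loess or an offset of 32, each of which left 7 counted. Sem1 (-0.37), a further lid subunit, and Pomp (-0.35), both from the proteasome-associated list, were lower too. Psmd4 was at 9.08 in the high and 9.49 in the low glucose control, with 9.36 in the fatty acid, 9.29 in the cholesterol, 9.09 in the OZ serum and 9.16 in the LZ serum library. The high glucose control was at the low end of the 6 libraries for Psmd4, and it held the lowest signal for 12 of 42 particle members above the filter and the highest for 0, where 11.0% and 13.5% of all genes did. The constitutive genes' median with fatty acid was 0.23 against the high and 0.08 against the low glucose control.

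Differences between serum libraries and between controls were correlated across these genes. The pairs share no library. Over 42 particle members above the filter, the OZ minus LZ difference correlated with the high minus low glucose difference at Pearson r 0.66 and Spearman rho 0.72, against -0.06 and 0.03 over 11540 genes. With the fatty acid minus low glucose difference, the OZ minus LZ difference had r 0.60 and rho 0.61 over members, against 0.14 and 0.19 over all genes. With the fatty acid minus high glucose difference these were 0.19 and 0.21, against 0.17 and 0.17. With the cholesterol minus high glucose difference they were -0.48 and -0.49 over members, against -0.04 and -0.13 over all genes. With the cholesterol minus low glucose difference they were 0.27 and 0.23, against -0.09 and -0.09. Between the lipids, with separate controls, fatty acid minus low glucose and cholesterol minus high glucose had r -0.41 and rho -0.34 over members, against 0.31 and 0.09 over all genes. With the controls exchanged these were -0.29 and -0.18 over members, against 0.31 and 0.18 over all genes. Genes are not independent replicates, the values share the arrays' normalization and each set rests on single arrays, so these are descriptions.

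**Figure D5:**
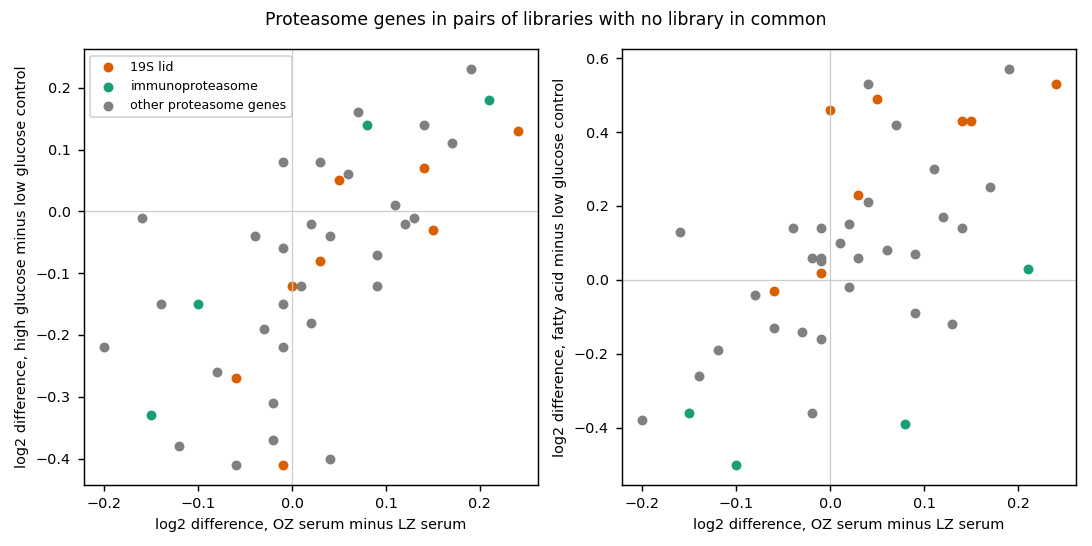
Log2 difference between OZ and LZ serum (x axis) against the difference between the high and low glucose control (left) or between the fatty acid library and the low glucose control (right), 1 point for each of 42 proteasome genes, coloured by part. Both panels slope upward, with r 0.66 on the left and 0.60 on the right. The lid genes Psmd6, Psmd12 and Psmd14 lie at the upper right of the right panel, along with genes of other parts such as Psmg2. Psmd8 and Psmd11, also lid genes, lie near the vertical line in that panel.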

How the data were processed

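The deposited table holds 1 linear intensity for each of 36685 probe sets in each library. How the authors summarised, corrected and normalized them is not given in the sources used here. Libraries had similar medians, so values were taken as scaled to each other, and were converted to log2 with nothing added. GEO's platform annotation named 18511 probe sets with a single gene and 575 with more, leaving 17599 unnamed. All 49 member probe sets matched RefSeq by Entrez identifier. Several genes on a probe set, as for Psma3 and Psme3, kept it out. The probe set with the highest mean stood for a gene. The filter asked for a mean at or above log2 6.74, the median of all values, which 11540 of 18166 genes passed.

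With 1 array per group no test was made. A gene's difference from several libraries is the smallest of its differences, set to 0 where their signs disagree, and was counted at 1.2-fold. That threshold, the members and the lists were chosen with earlier results of these data known. Any member may be named. From the companion lists, the text names genes counted at 1.2-fold and up to 4 others, in the comparisons where it gives that list. All 5 immunoproteasome members and up to 6 per direction and comparison are given by library. The rule was run on simulated data with known changes. A minimum recovery was required only of the largest changes, so the run sets no standard for differences near 1.2-fold. Alternatives were quantile normalization, median centring, cyclic loess, other filters, the mean of probe sets, an offset of 32, 1.5-fold and 2-fold thresholds and single or averaged controls. Python 3.11.15, numpy 2.4.6, pandas 2.3.3, matplotlib 3.10.9, R 4.3.3 and limma 3.58.1 were used.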

Additional observations from a re-analysis of the deposited data

Results flagged for a closer look

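A probe set annotated to several genes, and so left out of the comparisons, was above both controls: 17651321, with Psme3, Aoc3 and G6pc1, had a log2 signal of 7.17 in the fatty acid library, against 6.86 in the high and 6.79 in the low glucose control, a difference of 0.31. The signal cannot be assigned to any of these genes. Only probe sets above the filter and at least 1.2-fold higher were flagged. Probe set 17651311, with the same genes, was lower with fatty acid (-1.0).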

How the results depend on the processing

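With no replicates, a median was taken as moved when it shifted by over 0.1 on the log2 scale and a count when it changed by over 1.5 times. Of 203 alternative values over 22 results, 169 stayed within these limits, 34 moved and 0 reversed. No paired analysis was possible because each group has 1 array. Median centring shifted the median of all genes by up to 0.101, in the serum comparison. The lid alternatives were added after seeing the data.

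At 1.5-fold and 2-fold, 0 members and 0 lid genes were counted for fatty acid against both controls, 0 members for cholesterol, for high against low glucose and for the serum libraries. For fatty acid against cholesterol 4 members and 0 lid genes were counted at 1.5-fold and 0 at 2-fold. With the high glucose control alone, the constitutive median with fatty acid was 0.23 instead of 0.06, cholesterol had 7 counted members instead of 1, and its immunoproteasome median was 0.19 instead of 0.05. With the low glucose control alone, cholesterol had 5 and the serum libraries 3 counted members instead of 1, and the immunoproteasome medians were -0.37 with fatty acid instead of -0.19 and -0.13 with serum instead of -0.01. With the mean of both controls cholesterol had 3 counted members, and the immunoproteasome median with fatty acid was -0.31. The immunoproteasome list also depended on the filter, since Psmb8 enters without one and Psme2 alone is left by the stricter one (75th percentile, log2 8.68). Without a filter its medians were -0.03 with fatty acid and -0.34 against cholesterol. With the stricter filter they were 0.00 with fatty acid, -0.19 against cholesterol, 0.21 for OZ against LZ serum and 0.18 for high against low glucose. The single member counted for cholesterol and for serum, Psmc3ip, was lost (0) with the stricter filter in both, and for serum also with cyclic loess and the offset of 32. Without a filter 1 member, Psmb3l2, was counted for OZ against LZ serum.

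Of 36 member differences counted at 1.2-fold over all comparisons, 25 passed under every scaling, filter, probe-set and offset alternative. These include the 5 lid genes, Psmd5 and Psmg2 with fatty acid. Psmb9 and Psme1 were lost only where the stricter filter removed them.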

Other observations

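Ubiquitin ligases known from muscle wasting differed between the lipid libraries. Fbxo32, or atrogin-1, had a log2 signal of 8.90 in the fatty acid and 9.80 in the cholesterol library, against 9.27 in the high and 8.53 in the low glucose control. The cholesterol library lay 0.53 above the nearer control and the fatty acid library between the controls, which were themselves 0.74 apart. Trim63, or MuRF1, did not pass the filter. It was at 6.68 in the fatty acid and 6.97 in the cholesterol library, against 6.51 in the high and 6.67 in the low glucose control. Fbxo30 was higher with fatty acid (0.64), as was Traf6 (0.35), which encodes a ligase of inflammatory signalling.

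Of the 10 probe sets annotated to several genes with a proteasome gene among them, the one with Psma3 and Psma3l was at 11.29 in the fatty acid and 11.20 in the cholesterol library, against 11.24 in the high and 11.17 in the low glucose control. Probe set 17651311, with Aoc3, Psme3 and G6pc1, was at 7.57 in the fatty acid and 8.0 in the cholesterol library, against 8.58 in the high and 8.87 in the low glucose control, opposite in direction to probe set 17651288 with the same genes, at 10.73 in the fatty acid and 10.48 in the cholesterol library, against 10.47 in the high and 10.45 in the low glucose control.

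The copies among the members stayed at low signal. Psmd1-ps1 ranged from 7.71 to 7.86 over the 6 libraries, Psma6-ps1 from 5.60 to 6.11 and Psmb3l2 from 3.84 to 4.37.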
